A study of Homo sapiens with 12 samples.

Results

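Genes that set how glucose carbon is routed were followed through polyA RNA-seq of C4.2B cells. They are the pyruvate dehydrogenase kinases PDK1, PDK2, PDK3 and PDK4, the pyruvate dehydrogenase phosphatases PDP1 and PDP2, the bifunctional enzymes PFKFB2, PFKFB3 and PFKFB4, and the phosphatase TIGAR. They were taken by symbol from the deposited count table, where they make up 10 of 58735 genes. Of the 10, 9 had enough reads to be tested, among 16646 tested genes, and PDK4 did not. All 12 libraries come from C4.2B, a prostate cancer line that grows without androgens and descends from LNCaP cells. The study asked how inhibitors of AKT and of the histone methyltransferase EZH2 change these cells before they die. The 4 arms, with 3 libraries each (A, B and C), were DMSO (vehicle), AKTi (0.25 μM of ipatasertib, which blocks AKT), EZH2i (1 μM of tazemetostat, which blocks EZH2) and the combination of both. Tazemetostat was given for 6 days beforehand in the EZH2i and combination arms while the other arms received DMSO. Ipatasertib was then added, and tazemetostat continued, at a change to medium with 10% charcoal-stripped FBS, which is depleted of androgens. Every arm was collected 24 hours after that change. Agent and length of exposure therefore cannot be told apart between AKTi and EZH2i. The libraries of an arm are parallel plates of the same line, so p-values measure the spread between plates, which may be technical.

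Pyruvate dehydrogenase converts pyruvate into acetyl-CoA inside mitochondria. PDK enzymes phosphorylate its E1α subunit and switch the complex off, which leaves pyruvate for lactate, and the PDP enzymes remove the phosphate and switch it on again. Upstream, the PFKFB enzymes make and break fructose 2,6-bisphosphate, the strongest allosteric activator of phosphofructokinase, the committed step of glycolysis. PFKFB3 works mainly as the kinase, PFKFB2 is known as a substrate of AKT, and TIGAR degrades fructose 2,6-bisphosphate. PDK1, PFKFB3 and PFKFB4 are known targets of HIF-1, whose core DNA site is ACGTG or GCGTG, and MYC and USF factors bind the E-box CACGTG. PDK4 is a known target of FOXO and PPAR factors. PDK1 here is the mitochondrial kinase and not PDPK1, the kinase upstream of AKT that shares its abbreviation.

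The stretches below are shown because they hold the HIF core or E-box letters close to start sites of members. They are from RefSeq promoter windows on GRCh38.p14, each 250 bases before and 50 after an annotated start, and 12 windows of 8 members were searched on both strands; PDP1 and PFKFB2 had no entry. Capitals mark ACGTG, read on either strand, or CACGTG, which itself holds ACGTG on both strands. Each is given on its gene's strand (+).
PDP2, chr16:66880265-66880514: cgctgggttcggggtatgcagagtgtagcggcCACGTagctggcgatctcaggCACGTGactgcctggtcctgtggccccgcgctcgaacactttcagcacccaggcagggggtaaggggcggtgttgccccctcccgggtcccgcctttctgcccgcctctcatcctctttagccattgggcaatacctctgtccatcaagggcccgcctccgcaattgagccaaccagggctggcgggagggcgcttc
PDK1, chr2:172556068-172556092: cccgcCACGTccctCACGTaccact
PDK2, chr17:50095213-50095237: gggggaagcCACGTGccggggcgga
PDK3, chrX:24465215-24465239: cgcgccgcgtACGTGcagcaaccga
PFKFB3, chr10:6202815-6202839: cctcctcccCACGTGgaagggggct
TIGAR, chr12:4321132-4321156: ttcggggatgACGTGcgaggccgcc

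ACGTG was in 6 of the 12 windows, of 6 members, and in 21.4% of 35116 RefSeq promoter windows of the same length. The nearest matches to a start were those of PDK1, 8 and 17 bases before the second of its annotated starts, and those of PDK3 and TIGAR lay 61 and 71 bases before theirs. CACGTG was in 3 windows, of PDK2, PDP2 and PFKFB3, against 7.26% of all windows, and GCGTG was in 4, of PDK2, PDK3, PFKFB3 and PFKFB4, against 36.5%. The forkhead letters GTAAACA and ATAAACA, in 3.42% and 4.24% of all windows, were in none of the 12. These matches are letters in a short window, and binding was not measured here.

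The labelled cell type was checked first. In all, 6 luminal prostate genes (KLK3, KLK2, HOXB13, FOLH1, TMPRSS2 and STEAP2) were each at 50.0 CPM or more in every library, where CPM stands for counts scaled to library size with TMM factors. Their summed level was 3418 to 3496 CPM in DMSO, 5510 to 5532 with AKTi, 5462 to 5810 with EZH2i and 7875 to 7975 in the combination. KLK3 was the largest part, at 1372 CPM in DMSO and 3941 in the combination. The 6 did not all rise: HOXB13 went from 424 to 294 CPM in the combination, and FOLH1 was at 998 in DMSO and 927 with EZH2i. The 8 markers of other cells (PTPRC, CD68, PECAM1, COL1A1, COL3A1, DCN, KRT5 and TP63) summed to 5.28 to 8.68 CPM in DMSO, 4.97 to 6.74 with AKTi, 17.7 to 20.9 with EZH2i and 11.5 to 16.3 in the combination, most of it COL1A1, and KRT5 was at 0 in all 12 libraries. Both sums moved with the treatments, and their part in the results was not tested. Library totals ran from 14133755 to 22276417 counts.

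On hg38, the deposited gene models place PDK1 (ENSG00000152256) at chr2:172555373-172608669, PDK2 (ENSG00000005882) at chr17:50094737-50112152, PDK3 (ENSG00000067992) at chrX:24465221-24541862 and PDK4 (ENSG00000004799) at chr7:95583499-95596491. They place PDP1 (ENSG00000164951) at chr8:93857807-93926066 and PDP2 (ENSG00000172840) at chr16:66878589-66895754, and PFKFB2 (ENSG00000123836) at chr1:207034366-207081024, PFKFB3 (ENSG00000170525) at chr10:6144934-6254644, PFKFB4 (ENSG00000114268) at chr3:48517684-48562015 and TIGAR (ENSG00000078237) at chr12:4307763-4354593. PDK4 and PFKFB4 lie on the minus strand and the others on the plus strand. In DMSO, the members differed widely in level. Per kilobase of the deposited gene length, the order was PDK3 (6.49 ± 0.65 CPM per kb, SD, n = 3), PDP2 (6.02 ± 0.11), PFKFB3 (4.74 ± 0.30), PDK1 (4.70 ± 0.32), PFKFB2 (4.10 ± 0.16), PDP1 (3.15 ± 0.38), PDK2 (2.87 ± 0.072), PFKFB4 (2.12 ± 0.025), TIGAR (0.44 ± 0.084) and PDK4 (0.011). PDK3 and PDP2 did not differ beyond their spread, nor did PFKFB3 and PDK1, nor PDP1 and PDK2. PDK3 lay above 62.4% of tested genes on this scale and TIGAR above 17.9%.

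**Figure D1:**
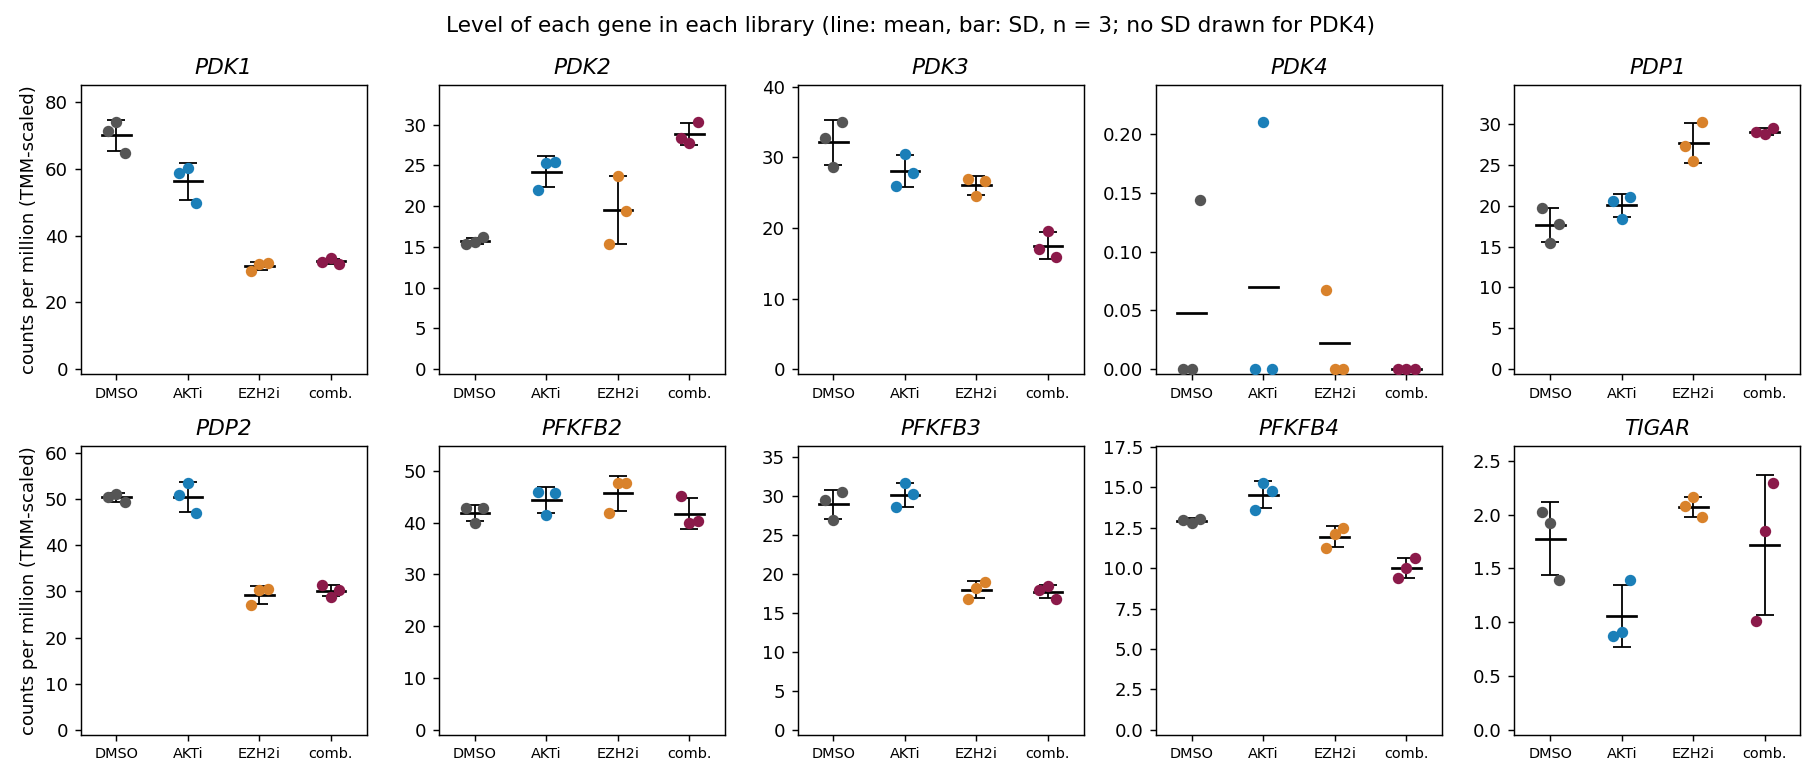
Level of each of the 10 genes in each library, in TMM-scaled CPM (vertical axes start just below 0, a different scale per panel), by arm (horizontal; comb. is the combination). Points are libraries, the line and bar are the mean and SD of 3, and no SD is drawn for PDK4. PDK1, PDP2 and PFKFB3 sit low in both arms with tazemetostat, PDP1 sits high there, and PDK2 is highest and PDK3 lowest in the combination.

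PDK1, a kinase known to be raised in hypoxia, fell furthest of the members. Its levels were 71.2, 74.0 and 64.7 CPM in DMSO libraries A, B and C, 58.7, 60.2 and 49.8 in AKTi, 29.5, 31.4 and 31.7 in EZH2i, and 32.1, 33.2 and 31.6 in the combination. Every treated library lay below every DMSO library, and the EZH2i and combination libraries overlapped. PDK1 fell to 0.443 of DMSO with EZH2i (log2 -1.17, SE 0.077, adjusted p = 7.35e-16, edgeR quasi-likelihood test with Benjamini-Hochberg adjustment over all tested genes, as for every adjusted p below). In the combination it was at 0.462 of DMSO (log2 -1.11, adjusted p = 1.33e-15), and with AKTi it was at 0.805 (log2 -0.31, SE 0.075, adjusted p = 0.00079). From EZH2i to the combination the log2 difference was 0.06 with an SE of 0.081 (adjusted p = 0.563). As these are bulk libraries, fewer cells with a transcript and less transcript per cell cannot be told apart, here or for the other members.

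PDK2, the broadly expressed kinase of the family, moved the other way. It was at 15.4, 15.6 and 16.2 CPM in DMSO, 22.0, 25.3 and 25.4 in AKTi, 15.3, 23.7 and 19.4 in EZH2i, and 28.4, 27.7 and 30.3 in the combination. The DMSO libraries were close together and the AKTi and combination libraries all lay above them, while EZH2i library A lay just below the lowest of them. PDK2 rose 1.54-fold with AKTi (log2 0.62, SE 0.12, adjusted p = 2.73e-05) and 1.83-fold in the combination (log2 0.87, adjusted p = 9.88e-09), and the combination was 1.47-fold above EZH2i (log2 0.56, adjusted p = 4.71e-05). The rise with EZH2i alone was 1.24-fold (log2 0.31, adjusted p = 0.0171) and rested on few libraries: it was 0.15 (adjusted p = 0.262) without EZH2i B, 0.28 (0.0655) without EZH2i C, 0.30 (0.0503) without DMSO A and 0.25 (0.0964) without DMSO B, on the log2 scale with adjusted p in parentheses. PDK2 was 0.25 higher in the combination than in AKTi (adjusted p = 0.0441), a call lost with DESeq2 (0.0634), with genes kept from 1 count in total (0.0979) and in 11 of 12 fits that left out a library, all but that without EZH2i B, and the value was 0.13 (0.385) without AKTi A. EZH2i against AKTi gave -0.31 (adjusted p = 0.0191), and lost its call without EZH2i A (-0.20, 0.134), the library that stood apart, AKTi B (0.0505) or AKTi C (0.0528), and when scaled by upper quartile (0.0629) or by library size only (0.0938). SAMD14, on the opposite strand within the PDK2 locus, had 4.65% as many counts as PDK2. It had 1 to 8 counts per library in DMSO, 5 to 15 with AKTi, 22 to 33 with EZH2i and 19 to 34 in the combination. PDK2's own counts, not scaled to library size, were 211 to 337 per library in DMSO, 304 to 366, 229 to 423 and 481 to 560. The strand setting of the counting is not given in the sources used here, and any share of SAMD14 reads in PDK2 was not tested.

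PDK3, the kinase with the highest level per length in DMSO, fell mainly in the combination. It was at 32.7, 28.7 and 35.0 CPM in DMSO, 26.0, 30.4 and 27.7 in AKTi, 27.0, 24.5 and 26.6 in EZH2i, and 17.1, 19.6 and 15.9 in the combination. The combination libraries lay below the other 9, the EZH2i libraries lay just below DMSO, and AKTi overlapped DMSO. The combination was at 0.543 of DMSO (log2 -0.88, SE 0.098, adjusted p = 4.21e-10), 0.624 of AKTi (adjusted p = 2.58e-07) and 0.673 of EZH2i (adjusted p = 8.8e-06). With EZH2i alone PDK3 was at 0.807 of DMSO (log2 -0.31, adjusted p = 0.00466), a call lost when libraries were scaled by size only (log2 -0.16, adjusted p = 0.128) or by upper quartile (-0.19, 0.0766). With AKTi alone the log2 value was -0.20 (adjusted p = 0.0897), and it passed the test at -0.30 (0.0214) without DMSO B and -0.29 (0.0373) without AKTi B.

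PDK4, the kinase induced by fasting in many tissues, was close to absent. It had 3 counts in 3 DMSO libraries together, 3 in AKTi, 1 in EZH2i and none in the combination, where a count of 0 allows up to 3 counts per library, or 0.152 to 0.181 CPM in counting error alone. No fold change is given for it.

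Between the phosphatases, PDP1 rose and PDP2 fell wherever tazemetostat was given. PDP1, the calcium-stimulated isoform, was at 19.7, 15.5 and 17.7 CPM in DMSO, 20.6, 18.4 and 21.1 in AKTi, 27.3, 25.4 and 30.2 in EZH2i, and 29.0, 28.7 and 29.5 in the combination. All 6 libraries with tazemetostat lay above all 6 without it, and AKTi overlapped DMSO. PDP1 rose 1.57-fold with EZH2i (log2 0.65, SE 0.099, adjusted p = 4.95e-07) and 1.64-fold in the combination (log2 0.72, adjusted p = 4.68e-08). AKTi gave 0.18 on the log2 scale with an SE of 0.10 (adjusted p = 0.168), and the combination gave 0.07 against EZH2i with an SE of 0.094 (adjusted p = 0.586).

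PDP2, the isoform not controlled by calcium, was at 50.5, 51.2 and 49.4 CPM in DMSO, 50.8, 53.5 and 47.0 in AKTi, 27.0, 30.3 and 30.5 in EZH2i, and 31.4, 28.9 and 30.2 in the combination. The libraries fell into the same arms as for PDP1, with those given tazemetostat now the low ones. PDP2 was at 0.583 of DMSO with EZH2i (log2 -0.78, SE 0.077, adjusted p = 3.77e-11) and at 0.600 in the combination (log2 -0.74, adjusted p = 8.7e-11). Against AKTi, the combination gave -0.74 for PDP2 (adjusted p = 1.49e-10) and 0.54 for PDP1 (adjusted p = 1.23e-05). AKTi against DMSO was 0.00 for PDP2 with an SE of 0.075 (adjusted p = 0.979).

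Of the PFKFB genes, PFKFB3 fell in both arms with tazemetostat. It was at 29.6, 26.9 and 30.5 CPM in DMSO, 28.6, 31.7 and 30.2 in AKTi, 16.8, 18.2 and 19.0 in EZH2i, and 18.0, 18.5 and 16.8 in the combination. No library with tazemetostat reached any library without it. PFKFB3 was at 0.622 of DMSO with EZH2i (log2 -0.69, SE 0.093, adjusted p = 5.24e-08), at 0.612 in the combination (log2 -0.71, adjusted p = 1.84e-08) and at 0.589 of AKTi in the combination (log2 -0.76, adjusted p = 6.19e-09). AKTi alone gave 0.06 on the log2 scale with an SE of 0.091 (adjusted p = 0.667).

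PFKFB4, another known HIF-1 target, changed less. It was at 13.0, 12.8 and 13.0 CPM in DMSO, 13.6, 15.3 and 14.7 in AKTi, 11.3, 12.1 and 12.5 in EZH2i, and 9.38, 9.97 and 10.6 in the combination. The 4 arms did not overlap, in the order AKTi, DMSO, EZH2i and combination, but the neighbouring arms in that order did not pass the test. The combination was at 0.687 of AKTi (log2 -0.54, SE 0.12, adjusted p = 0.000162) and at 0.772 of DMSO (log2 -0.37, adjusted p = 0.00556). The call against DMSO was lost when libraries were scaled by size only (-0.18, adjusted p = 0.184) or by upper quartile (-0.19, 0.15). EZH2i against AKTi was -0.28 (adjusted p = 0.0462) and lost its call in 10 of 19 alternatives, DESeq2 among them (0.0555). The libraries whose removal ended it were AKTi B (0.113), AKTi C (0.075), EZH2i A (0.0961) and EZH2i B (0.0759).

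PFKFB2 passed the test in none of the 6 comparisons of arms, with all libraries. It was at 42.8, 40.0 and 42.8 CPM in DMSO, 45.9, 41.5 and 45.7 with AKTi, 41.8, 47.6 and 47.7 with EZH2i, and 45.1, 39.8 and 40.3 in the combination, so the arms overlapped. Its log2 values against DMSO were 0.08 for AKTi (SE 0.078), 0.13 for EZH2i (SE 0.077, adjusted p = 0.146) and 0.00 for the combination (SE 0.077, adjusted p = 0.97). Scaled by library size only, EZH2i gave 0.27 (adjusted p = 0.00228) and the combination 0.19 (0.0248), and by upper quartile 0.25 (0.00458) and 0.18 (0.0313). Without EZH2i A, the combination against EZH2i gave -0.22 for PFKFB2 (0.0226). YOD1, a gene on the opposite strand within the PFKFB2 locus, had 56.7% as many counts as PFKFB2. YOD1 was at 32.5 to 34.7 CPM in DMSO, 25.5 to 31.4 with AKTi, 18.4 to 23.2 with EZH2i and 17.0 to 18.7 in the combination. As the strand setting is not given, reads of the 2 genes may not have been told apart, and PFKFB2's level is uncertain for that reason.

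TIGAR was the lowest tested member, with 12 to 43 counts per library. It was at 2.02, 1.92 and 1.39 CPM in DMSO, 0.87, 0.91 and 1.39 in AKTi, 2.08, 2.16 and 1.98 in EZH2i, and 1.01, 1.84 and 2.30 in the combination. AKTi held the lowest libraries and the combination libraries were spread over the whole range. Against DMSO the log2 values were -0.73 for AKTi (SE 0.36, adjusted p = 0.109), 0.24 for EZH2i (SE 0.33, adjusted p = 0.542) and -0.04 for the combination (SE 0.33, adjusted p = 0.912). Those for EZH2i and the combination lay within their SE. A difference of the size seen with AKTi was near the limit of what this depth could detect. EZH2i was 1.95-fold above AKTi (log2 0.96, adjusted p = 0.0227). That call was lost without AKTi A (0.82, adjusted p = 0.095), AKTi B (0.84, 0.0911) or EZH2i B (0.93, 0.0525). The combination against AKTi gave 0.68 (adjusted p = 0.0982), and passed the test in 4 alternatives: 0.96 (0.0247) without combination A, 0.82 (0.046) by library size only, 0.81 (0.0495) by upper quartile and 0.74 (0.0484) with at least 10 counts in every library. The pseudogene AC006122.1, which overlaps TIGAR on the other strand, had 4.83% as many counts as TIGAR.

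**Figure D2:**
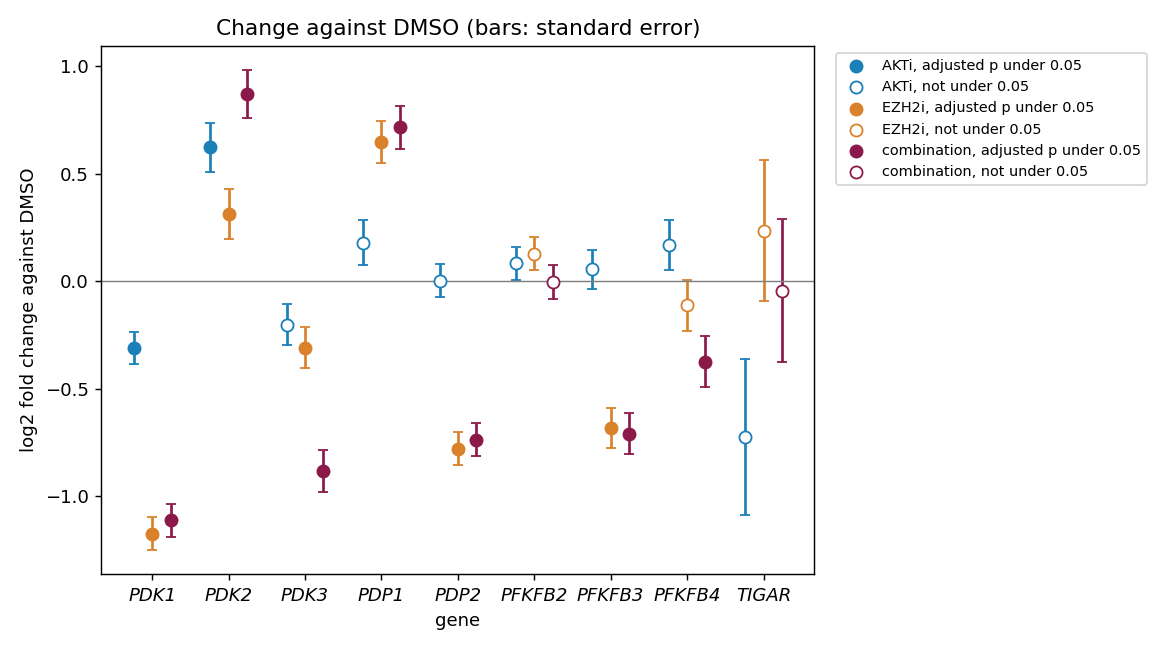
Log2 fold change against DMSO (vertical) of the 9 tested genes (horizontal) for AKTi, EZH2i and the combination, with bars for the SE; filled points have an adjusted p under 0.05 and open points do not. EZH2i and the combination lie close together for PDK1, PDP1, PDP2 and PFKFB3 and apart for PDK2 and PDK3.

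Counted together, 2 of the 9 tested members passed the test with AKTi, 1 higher and 1 lower, where 42.5% of all tested genes passed (20.6% higher, 21.9% lower). With EZH2i 6 passed, 2 higher and 4 lower, against 64.1% of all genes (32.6% higher, 31.5% lower). In the combination 7 passed, 2 higher and 5 lower, against 73.2% (38.0% higher, 35.2% lower). Against AKTi, the combination differed in 7 members, 2 higher and 5 lower (64.2% of all genes; 32.1% in each direction), and EZH2i in 7, 2 higher and 5 lower (50.4%; 25.4% higher, 25.1% lower). Against EZH2i, the combination differed in 2 members, PDK2 higher and PDK3 lower (46.7% of all genes, 21.1% higher and 25.7% lower). Without EZH2i A it differed in 4, which added PFKFB2 and PFKFB4, where 7283 of 17265 genes passed. The libraries of the arms did not overlap for 4, 6 and 7 members in AKTi, EZH2i and the combination against DMSO, beside 51.1%, 66.2% and 74.5% of all genes, and for 7, 3 and 6 in the combination against AKTi, the combination against EZH2i and EZH2i against AKTi, beside 67.9%, 53.5% and 56.0%. With 9 members and shares of all genes this high, the counts are not read as a result about the members as a group. The comparisons share libraries, those against DMSO the same 3 controls. The median log2 value of the 9 against DMSO was 0.06 with AKTi, -0.11 with EZH2i and -0.37 in the combination, where the medians of all tested genes were 0.01, 0.03 and 0.06.

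Within families, the make-up shifted. Of the summed PDK1 to PDK4 level per kilobase, PDK2 held 20.4% ± 0.54 (SD, n = 3) in DMSO, 31.9% ± 2.0 with AKTi, 32.5% ± 5.3 with EZH2i and 48.0% ± 2.9 in the combination. The PDK1 share was 33.5% ± 3.2, 27.3% ± 2.6, 19.1% ± 0.43 and 19.8% ± 0.23 in the same order, and the PDK3 share was 46.1% ± 3.3, 40.8% ± 0.91, 48.4% ± 4.9 and 32.2% ± 2.8. Per kilobase PDK3 thus led in DMSO, AKTi and EZH2i, and PDK2 led in the combination. Without division by gene length PDK1 led in every arm, with 59.3%, 51.8%, 40.4% and 41.1% in the same order. The PDK1 to PDK2 ratio per kilobase was 1.64 ± 0.15 in DMSO, 0.86 ± 0.13 with AKTi, 0.60 ± 0.11 with EZH2i and 0.41 ± 0.028 in the combination.

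Per kilobase, the phosphatase balance crossed over, which did not hold without division by gene length. PDP1 held 34.3% ± 2.9 of the PDP level per kilobase in DMSO and 37.3% ± 3.1 with AKTi, but 58.5% ± 2.5 with EZH2i and 59.0% ± 0.94 in the combination. The summed PDP level stayed between 8.10 and 9.75 CPM per kb in all 12 libraries. Without division by gene length it was not as steady, as PDP2 went from 50.36 CPM in DMSO to 30.17 in the combination and PDP1 only from 17.65 to 29.06. The summed PDK level per kb was 14.1 ± 0.41 in DMSO, 13.9 ± 0.86 with AKTi, 10.9 ± 0.58 with EZH2i and 11.0 ± 0.24 in the combination. Kinase over phosphatase was 1.54 ± 0.051 in DMSO, 1.45 ± 0.089 with AKTi, 1.29 ± 0.090 with EZH2i and 1.25 ± 0.055 in the combination. Without the division this ratio was 1.734, 1.541, 1.345 and 1.328 in the same order. These sums are of transcripts and not of enzyme activity.

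Among PFKFB1 to PFKFB4, PFKFB3 held 41.8% ± 1.3 in DMSO and 40.9% ± 0.80 with AKTi, and 29.1% ± 0.34 with EZH2i and 30.9% ± 1.3 in the combination. PFKFB2 held 36.2% ± 0.84, 36.2% ± 3.1, 44.2% ± 0.73 and 43.6% ± 2.8 in the same order. Per kilobase it thus led in the arms with tazemetostat without passing the test itself. Reads of YOD1 may be among its counts, so the PFKFB shares and their order are uncertain. Without division by gene length PFKFB2 led in all 4 arms, with 49.5%, 49.4%, 59.1% and 58.7% against 23.4% to 34.3% for PFKFB3. PFKFB4 stayed between 16.2% and 20.1% in every library. Shares and ratios are descriptions with no test, and they rest on the deposited gene lengths: PDK1 has the longest model, at 14883 bases, and without the division it held 59.3% of PDK counts in DMSO and 41.1% in the combination, ahead of PDK2 (13.3% and 36.7%). PDP2, likewise, was then still slightly above PDP1 with EZH2i (51.4%) and in the combination (50.9%).

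**Figure D3:**
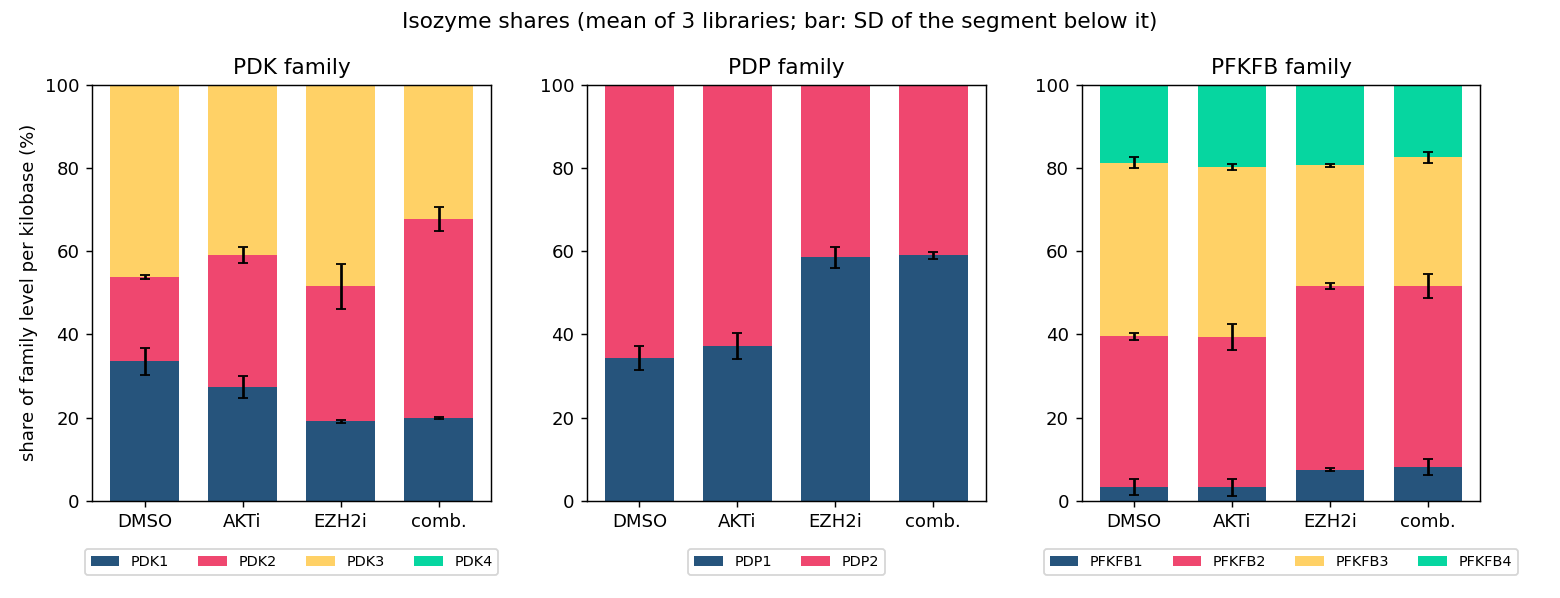
Share of each family's summed level per kilobase (vertical, percent from 0, mean of 3 libraries per arm) held by each PDK, PDP and PFKFB gene in the 4 arms (horizontal; comb. is the combination). Black bars are the SD of the segment below them, and PDK4 is too low to be seen. PDK2 grows from 20.4% to 48.0%, PDP1 from 34.3% to 59.0%, and PFKFB3 shrinks from 41.8% to 30.9% between DMSO and the combination.

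Whether both agents together did more or less than their sum was asked with the interaction term, which is the log2 change of the combination against DMSO less those of the 2 agents alone. It passed the test for 2 of the 9 members, 1 above and 1 below 0, where 28.2% of all tested genes passed (10.7% above, 17.5% below). For PDK1 the single-agent changes summed to -1.49 and the combination gave -1.11, an interaction of 0.37 (SE 0.11, adjusted p = 0.00897), so PDK1 fell by less than the sum. For PDK3 they summed to -0.51 and the combination gave -0.88, an interaction of -0.37 (SE 0.14, adjusted p = 0.0414), so PDK3 fell by more. The PDK1 call held in every alternative, with adjusted p up to 0.0356. The PDK3 call was lost with DESeq2 (-0.36, 0.0502), with both other filters on low counts (0.0517 and 0.0561) and without any of 7 libraries. Its value was -0.26 (0.195) without DMSO B, -0.28 (0.194) without AKTi B, -0.31 (0.121) without combination C and -0.32 (0.125) without EZH2i C, and the adjusted p was 0.0564 without DMSO A, 0.0962 without AKTi C and 0.0792 without combination A. PFKFB4 gave -0.43 (SE 0.17, adjusted p = 0.0515), just short of the threshold, and passed it by library size only (0.0496) and without AKTi A (0.0315), EZH2i A (0.031) or combination C (0.0464). PFKFB2 gave -0.21 (adjusted p = 0.146), and -0.30 (0.0361) without EZH2i A, and TIGAR gave 0.45 with an SE of 0.49. For PDP1, PDP2, PFKFB3 and PDK2 the interaction was -0.11, 0.04, -0.08 and -0.06, each within its SE of 0.11 to 0.16.

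**Figure D4:**
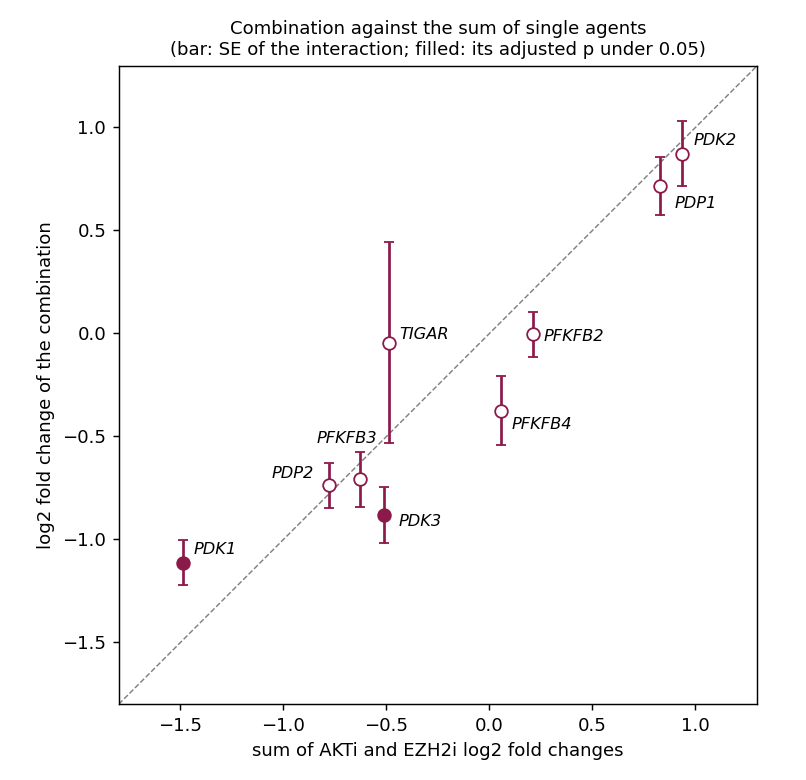
Log2 fold change of the combination (vertical) against the sum of the AKTi and EZH2i log2 fold changes (horizontal), all against DMSO, for the 9 tested genes; the dashed line marks equality, bars are the SE of the interaction and filled points have an interaction adjusted p under 0.05. PDK1 lies above the line and PDK3 below it.

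Partners of the members were read from a list of 15 genes, of which 13 were tested: subunits of pyruvate dehydrogenase, the phosphatase regulator PDPR, the mitochondrial pyruvate carriers, PFKFB1, the phosphofructokinases and the fructose bisphosphatases. The list was chosen with earlier results of these data known, and PDPR was added after its values were seen. Counts over it are therefore a description and not independent of the data. In the combination 3 of the 13 were higher than DMSO and 10 lower, where 38.0% of all tested genes were higher and 35.2% lower. With AKTi 2 were higher and 7 lower (20.6% and 21.9% of all genes), and with EZH2i 2 and 9 (32.6% and 31.5%). The median log2 value in the combination was -0.86, that of the carrier MPC1, against 0.06 for all tested genes. PDHA1, the E1α subunit that PDK enzymes phosphorylate, went from 124 ± 8.8 CPM in DMSO to 110 ± 5.6 with AKTi, 84.1 ± 1.6 with EZH2i and 62.5 ± 5.6 in the combination (log2 -0.99, adjusted p = 6.26e-16). DLAT, the E2 subunit to which the kinases dock, fell furthest on the list, from 237 ± 11 CPM to 55.4 ± 1.9 in the combination (log2 -2.09, adjusted p = 1.33e-27). PDPR, the regulatory subunit that holds PDP1 in check, rose from 17.9 ± 1.1 CPM to 38.7 ± 1.7 (log2 1.10, adjusted p = 4.75e-12).

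The phosphofructokinases, which fructose 2,6-bisphosphate activates, were lower in the combination in all 3 isozymes. PFKP fell to 0.340 of DMSO (log2 -1.56, adjusted p = 2.07e-21), PFKM to 0.658 (-0.60, 3.5e-11) and PFKL to 0.685 (-0.55, 1.5e-09). PFKL was 1.20-fold higher with AKTi alone (adjusted p = 0.000659). At the high end, FBP2, a fructose bisphosphatase known from muscle, gave 1.68 in the combination (adjusted p = 0.0141) from 1 to 10 counts per DMSO library and 12 to 20 per combination library. FBP2 had enough reads to be tested only through libraries given tazemetostat. Its call, among the 3 higher, was favoured by that selection. Interaction passed the test for 7 of the 13, all of them below 0, against 17.5% of all tested genes below 0. This count, too, is of a list chosen with earlier results known. Under the other scalings the combination still gave 3 higher and 10 lower. By library size only AKTi gave 3 higher and 5 lower and EZH2i 2 and 8, and by upper quartile AKTi gave 3 and 6 and EZH2i 2 and 8. The fall of PDHA1 with AKTi (log2 -0.17, adjusted p = 0.0328) was among the calls lost under both (0.171 and 0.158).

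**Figure D5:**
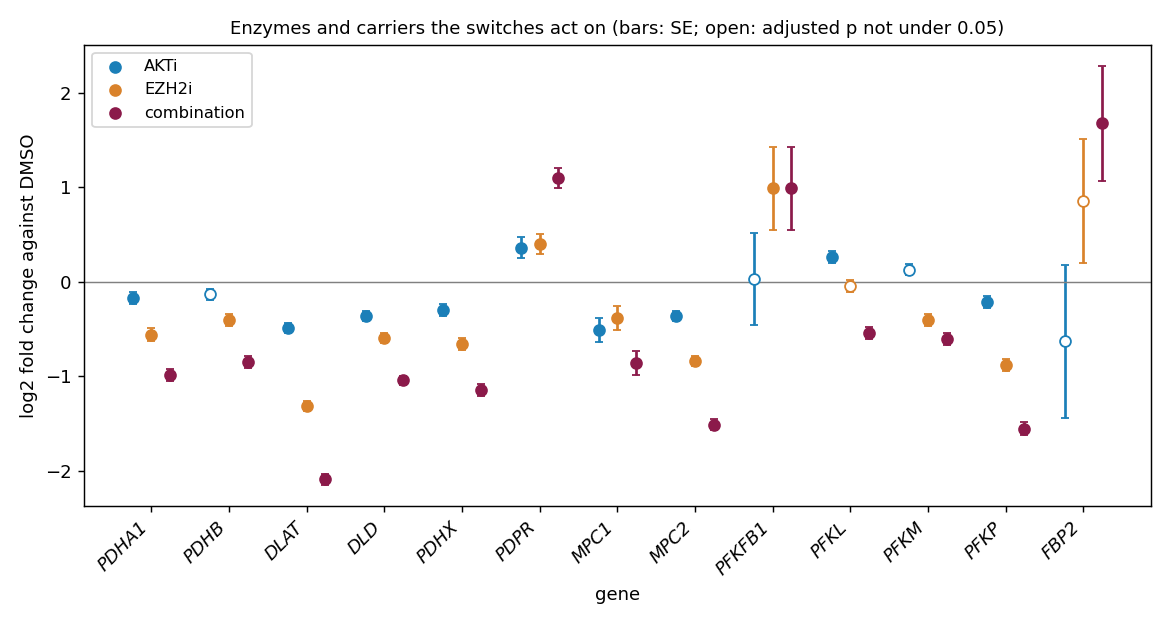
Log2 fold change against DMSO (vertical, bars for the SE) of the 13 tested genes of the partner list (horizontal) for AKTi, EZH2i and the combination; open points have no adjusted p under 0.05. In the combination 10 are lower and 3 higher, from -2.09 for DLAT to 1.68 for FBP2. FBP2 had enough reads to be tested only through libraries given tazemetostat.

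Transcription factors known to act on members formed a list of 12, all tested. In the combination 8 were higher than DMSO and 3 lower, where 38.0% of all tested genes were higher and 35.2% lower. With AKTi 4 were higher and 2 lower (20.6% and 21.9% of all genes), and with EZH2i 8 and 2 (32.6% and 31.5%). In either direction 73.2%, 42.5% and 64.1% of all tested genes passed, in the same order. The list was chosen with earlier results of these data known, and some of its factors were named after their values were seen. Counts over it are therefore a description and not independent of the data. By library size only and by upper quartile AKTi gave 5 higher and 0 lower. HIF1A mRNA, whose protein is the oxygen-regulated part of HIF-1, was at 149 ± 9.5 CPM in DMSO, 131 ± 0.48 with AKTi, 237 ± 18 with EZH2i and 165 ± 8.7 in the combination. It was highest with EZH2i. By immunoblot the paper found less HIF-1A protein with the AKT inhibitor and less MYC protein with the EZH2 inhibitor. From RNA-seq of C4.2B cells it also reported HIF-1A target signatures reduced mainly by AKT inhibition, and MYC signatures more by EZH2 inhibition. The libraries read here hold no protein measurement. Any link of HIF1A mRNA to PDK1 and PFKFB3 was not tested. HIF1A mRNA gave log2 values of -0.19 with AKTi (adjusted p = 0.0126), 0.67 with EZH2i (3.41e-12) and 0.14 in the combination (0.0341). The call was lost with AKTi under library-size (0.089) and upper-quartile scaling (0.0787) and in the combination with DESeq2 (0.0683). MYC was higher with AKTi (log2 0.71, adjusted p = 3.1e-13) and lower with EZH2i (-1.37, 1.78e-21) and in the combination (-0.32, 3.72e-06). FOXO1, FOXO3 and FOXO4 were 5.29-, 7.68- and 4.75-fold above DMSO in the combination and PPARA 2.44-fold. PDK4, their known target, was close to absent in every arm, and a link between it and these factors was not tested. FOXO3 has a near-identical copy, FOXO3B, so its count is uncertain. EPAS1, which encodes HIF-2α, was 6.98-fold above DMSO in the combination and PPARD 1.46-fold. NR3C1, the glucocorticoid receptor gene, was also higher, at 26 to 61 counts per library against 0 to 4 in DMSO. It had enough reads to be tested only through libraries given tazemetostat. Its call, among the 8 higher, was favoured by that selection. ESRRA (0.734 of DMSO) and USF1 (0.799) were lower, the latter a call lost by library size only (adjusted p = 0.157) and by upper quartile (0.116). The coactivator gene PPARGC1A gave a log2 value of 0.02 (adjusted p = 0.983).

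Among themselves, some members moved closely together over the 12 libraries, which the 4 arms structure. Pearson's r of log2 CPM was 0.98 for PDP2 and PFKFB3, 0.97 for PDK1 and PDP2, and -0.95 for PDK1 and PDP1. The gene most like each member, among 13074 other tested protein-coding genes, was AIMP2 for PDK1 (r = 0.99), HIVEP1 for PDK2 (0.97), PLEKHG3 for PDK3 (0.98), NKX3-2 for PDP1 (1.00), CHPT1 for PDP2 (0.99), AMIGO2 for PFKFB2 (0.82), POLR3D for PFKFB3 (0.99), DCAF12 for PFKFB4 (0.96) and ST8SIA5 for TIGAR (0.89). Many genes came close: 260 had an r over 0.95 with PDK1 and 235 with PFKFB3, but 5 with PDK2 and 3 with PFKFB4. Ranked by Spearman's rho instead, the closest gene was the same for PDP1 and TIGAR and another for the other 7.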

How the data were processed

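RNA of C4.2B cells in 4 arms of 3 libraries was read. The authors aligned reads to hg38 with STAR, counted them per gene with HTSeq and deposited raw counts. Versions, annotation and strand setting are not given in the sources used here, and sequencing by NextSeq 500 or Novogene is not assigned to libraries. The deposited table also holds a gene length, which belongs to no sample. A further deposited table of DESeq2-normalized signal was used as a check: for 56994 names, 100% of its values are the count over that library's size factor, within 1e-06.

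In R 4.3.3, low genes were removed by filterByExpr of edgeR 4.0.16 at a minimum count of 10 and a minimum total of 15, and TMM factors were applied. All 12 libraries entered a single quasi-likelihood fit with the arm as the factor, with Benjamini-Hochberg adjustment over 16646 genes and a threshold of 0.05. CPM carries no prior count. Correlations used log2 CPM with a prior count of 2. Promoters were read with Python 3.11.15 from RefSeq, and all 10 genes lie on the same chromosome and strand in GENCODE v44 as in the deposited table. Replicates of an arm differed by more than sampling noise.

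The members and lists were chosen with earlier results of these data known. All members are named. Of their partners, PDHA1, the PFK isozymes and the extremes of the combination are named, and the 12 factors, 6 of them named after their values were seen; PDPR, the PDP regulator, was added after its values were seen. Alternatives were DESeq2 1.42.0, other scalings, other filters, the 6 libraries compared alone, leaving out each library and a replicate block. Protein sequences were not analysed here, and some genes of the marker and factor lists are not reported here.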

Additional observations from a re-analysis of the deposited data

Results flagged for a closer look

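For PDK1 the effect of AKTi differed between cells with and without EZH2i: the interaction was 0.37 on the log2 scale (SE 0.11, adjusted p = 0.00897, edgeR). AKTi went with a log2 change of -0.31 in PDK1 against DMSO and of 0.06 on top of EZH2i.

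For PDK3 the interaction was -0.37 (SE 0.14, adjusted p = 0.0414, edgeR). AKTi went with a log2 change of -0.20 in PDK3 against DMSO and of -0.57 on top of EZH2i. The adjusted p was between 0.015 and 0.195 over the alternatives.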

How the results depend on the processing

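Of 63 log2 fold changes of members, 33 passed the threshold. None of these changed sign under an alternative, 25 kept their call under every alternative and 8 lost it under at least 1; the cause was not tested. Of the 30 that did not pass, 14 changed sign and 8 passed under at least 1 alternative.

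The number of members with an interaction went from 2 to 1 with DESeq2, with at least 1 count in total and with at least 10 counts in every library. Of all genes, 4539 of 16646, 4203 of 34381 and 4659 of 13359 passed there, against 4688 of 16646 in the main fit. With each library left out it was 1 to 4 members, and 4004 to 4666 of all genes. The count for the combination against EZH2i was 2 to 4 members, with 4 and 7283 of 17265 genes without EZH2i A. That for EZH2i against AKTi was 4 to 7 members, with 4 and 7621 of 17313 genes without AKTi B. These counts are not read as a result about the members. Replicate letters did not pair the libraries (correlations of deviations -0.058 to 0.069 over 18 same-letter pairs), and a replicate block left the combination against DMSO at 7 members, with 12146 genes called against 12186.

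Values that did not pass the test changed sign as follows, in log2. By library size only, by upper quartile and with at least 10 counts in every library, PFKFB2 in the combination against DMSO was 0.1926, 0.181 and 0.0644, PFKFB3 in the combination against EZH2i was 0.0275, 0.0413 and 0.0097, and TIGAR in the combination against DMSO was 0.1552, 0.1409 and 0.0261. By library size only and by upper quartile, PFKFB2 in the combination against AKTi was 0.0493 and 0.0385, and PFKFB4 in EZH2i against DMSO was 0.0334 and 0.0079. PDP2 in AKTi against DMSO was -0.0067 with DESeq2 and -0.0028 with at least 1 count in total. With libraries left out in turn, the ranges were as follows. PDK1 in the combination against EZH2i was -0.002 to 0.1029 and PDP2 was -0.0411 to 0.0944. PFKFB3 there was -0.1014 to 0.0391. PDP2 in AKTi against DMSO was -0.0667 to 0.0284 and PFKFB3 was -0.02 to 0.0952. PFKFB2 was -0.0261 to 0.08 in EZH2i against AKTi and -0.0805 to 0.0251 in the combination against DMSO, where TIGAR was -0.3089 to 0.2315. The interaction was -0.2294 to 0.0888 for PDK2, -0.198 to 0.0006 for PDP1, -0.0407 to 0.1165 for PDP2 and -0.153 to 0.0031 for PFKFB3.

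By library size only the median of all genes in the combination against DMSO was 0.26 in place of 0.06, with 7574 genes higher and 4749 lower in place of 6320 and 5866. Without division by gene length 36 of 40 shares moved by more than 1 SD, and with a library left out 0 of 120 did. TIGAR, at 12 to 43 counts per library, is limited by depth.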
